A study of Homo sapiens with 32 samples.

Results

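The genes described here are 39 genes of the hypoxia response and of glycolysis, measured as RNA in human prostate cancer cells in which CSN5 was depleted or inhibited. They were chosen by name, as textbook members of both programmes and with earlier results of these data known, and their rows were taken from all 6 deposited count tables. The tables hold 57445 Ensembl identifiers in 4 cases, 21549 symbols in the LNCaP inhibitor table and 16603 symbols in the C4-2 inhibitor table. All 39 genes were found in the 4 larger tables, 36 in the LNCaP inhibitor table (CA9, MXRA5 and SLC2A3 had no row) and 37 in the C4-2 inhibitor table (ADM and MXRA5 had no row). The series holds 32 libraries in 16 groups of 2, from the established lines LNCaP, C4-2, 22Rv1 and PC3. LNCaP responds to androgen, C4-2 is its castration-resistant derivative, 22Rv1 came from a relapsed xenograft, and PC3 grows without androgen. Each line was infected with a scramble shRNA or with an shRNA against CSN5 (shCSN5), and the titles carry a single shRNA code for all 4 lines. Separately, LNCaP and 22Rv1 had DMSO or the CSN5 inhibitor CSN5i-3 at 5 µM, and PC3 had DMSO or CSN5i-3 at 10 µM. In the C4-2 inhibitor table titles and descriptions conflict: libraries titled NT carry a description of CSN5i-3 at 1 µM, and those titled C5i one of DMSO. That comparison is therefore given only by title. PC3 shCSN5 replicate 2 has a title and a description that name shCSN5 and a characteristic that names a drug-treated cell. The labels name standard culture and state neither an oxygen tension nor a treatment time. Whether the 2 libraries of a group came from separate cultures is not stated, and p-values then reflect only library-to-library spread, which may be technical.

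Hypoxia-inducible factors are pairs of an oxygen-regulated alpha subunit (HIF1A or EPAS1) and a constant partner, ARNT. When oxygen is present, prolyl hydroxylases of the EGLN family mark the alpha subunit, and VHL, the substrate receptor of a cullin ligase built on CUL2, directs its ubiquitination and degradation. CSN5, the product of COPS5, is the protease of the COP9 signalosome and takes NEDD8 off cullins, CUL2 among them. The factors induce genes of glucose uptake, glycolysis, lactate export, pH control, angiogenesis and mitophagy. Only RNA was measured here, and the turnover of HIF alpha proteins was not.

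The shRNA target fell in all 4 lines: COPS5 stood at 53.4 and 52.7 CPM with scramble, against 2.90 and 1.79 CPM with shCSN5 in LNCaP, with log2 fold changes of -4.50 in LNCaP, -3.56 in C4-2, -2.68 in 22Rv1 and -3.18 in PC3. Levels are given as CPM, the usual depth-scaled count, after trimmed mean of M-values (TMM) scaling within 1 comparison, and are compared only within a table. Library totals ran from 20.6 M to 32.5 M counts in the shRNA tables and from 29.5 M to 50.9 M counts in the inhibitor tables. The 2 libraries of a group differed most in LNCaP shCSN5 (chi-square per gene 71.3, where counting error alone gives about 1) and least in PC3 DMSO (1.72). KLK3, the luminal prostate marker also known as PSA, stood at 3312 and 3413 CPM in LNCaP scramble libraries and had at most 1 count in PC3 scramble libraries, where KLK2, its relative, was at 0. In LNCaP KLK3 was at 2523 and 2598 CPM in DMSO libraries, beside 353 and 351 CPM in CSN5i-3 libraries (log2 fold change -2.86, SE 0.0531, adjusted p = 3.8e-07). It was higher in 22Rv1 with shCSN5 (2.20) and with CSN5i-3 (0.65), and in LNCaP and C4-2 with shCSN5 it was not called (-0.28 and -0.26). KLK2 was lower with shCSN5 in LNCaP (-0.49), C4-2 (-0.74) and 22Rv1 (-0.24). CSN5i-3 lowered KLK2 in LNCaP (-2.53), and in 22Rv1 it was not called (-0.24). The 6 luminal markers listed summed to 1612 to 1644 CPM with scramble and 971 to 986 CPM with shCSN5 in 22Rv1. This sum was lower in treated libraries in all 7 comparisons with undisputed labels. It fell furthest in LNCaP with CSN5i-3, from 4356 to 4487 CPM with DMSO to 1000 to 1013 CPM. With shCSN5, each line had single markers called in either direction. The mitochondrial share of counts lay above the controls in every treated library of the 7 comparisons with undisputed labels, and furthest in LNCaP with CSN5i-3, at 5.99% and 5.54% in DMSO libraries, beside 7.31% and 7.47%. Leukocyte markers summed to at most 4.17 CPM in any library, with only 2 of the 5 found in the LNCaP and C4-2 inhibitor tables. Treated libraries had the higher sums in all 7 comparisons with undisputed labels. In PC3, for example, they were 0.734 to 0.812 CPM with scramble and 2.87 CPM with shCSN5. The part that these shifts have in the results was not tested, and in such bulk libraries fewer cells of a type and less RNA per cell cannot be told apart.

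Upstream sequences were searched for the 5-letter core that HIF dimers bind, ACGTG or GCGTG, on both strands (CACGT and CACGC on the reverse), in the 250 bases before each RefSeq start (GRCh38.p14). Of the 39 genes, 34 had at least 1 start in the table, and VHL, VEGFA, BNIP3L, LOXL2 and SLC2A3 had no entry. At least 1 window held a match in 29 of these 34 genes, against 47.4% of all 27305 symbols. Genes with several starts have more chances, so the genes with 1 window were also counted: 17 of 22 held a match (77.3%), against 42.2% of 22114 symbols with 1 window. The 4 stretches shown belong to genes called in 7 of the 8 comparisons of treated and control libraries, the most of any gene with a match, and ties were broken by the number of matches and then by the order of the list, a choice made after the values were seen. For each gene the start with the most matches is shown, from 20 bases before the first match to 20 bases after the last, or to the end of the window, or to the base before the first that GENCODE 29 gives as exonic. Capitals mark the matches, and CACGTG reads as a match on both strands and was counted as 1.
HK2 (chr2:74834956-74835124, plus strand): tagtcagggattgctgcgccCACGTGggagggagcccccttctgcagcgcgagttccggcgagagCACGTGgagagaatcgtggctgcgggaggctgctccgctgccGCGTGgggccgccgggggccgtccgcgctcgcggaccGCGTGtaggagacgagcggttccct
PFKP (chr10:3104528-3104608, plus strand): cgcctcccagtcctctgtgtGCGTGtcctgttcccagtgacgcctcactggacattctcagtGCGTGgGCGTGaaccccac
LDHA (chr11:18394358-18394387, plus strand): ccttacttagactcccagcgCACGTGgagc
EPAS1 (chr2:46297270-46297314, plus strand): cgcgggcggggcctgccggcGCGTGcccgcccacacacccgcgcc
The second start of HK2 had 4 matches, the first starting 194 bases and the last 70 bases before it. The fourth start of PFKP had 3. The first start of LDHA also had 3, of which 1 lies before the first annotated exon and is shown, and EPAS1 had 1. The windows of EGLN3, P4HA2, SLC2A1, PGAM1 and PKM held none of these letters. A match is a description of the sequence, not a site of binding.

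With shCSN5, 19 of 20 calls in PC3 were decreases, whereas LNCaP, C4-2 and 22Rv1 each had at least 6 calls in either direction. A gene was called when its Benjamini-Hochberg adjusted p, over all genes tested in edgeR's quasi-likelihood test, was under 0.05. With shCSN5 in LNCaP, 35 of the 39 genes passed the filter on low counts, 10 were called higher (18.3% of all genes tested were) and 11 lower (17.4% of all). In C4-2, 13 of 35 were higher (15.7% of all) and 6 lower (16.2% of all). In 22Rv1, 13 of 36 were higher (22.6% of all) and 6 lower (21.3% of all). In PC3, 1 of 36 was higher (10.3% of all) and 19 were lower (6.41% of all). The members' median log2 fold change was -0.07 in LNCaP, -0.06 in C4-2, 0.04 in 22Rv1 and -0.73 in PC3, beside -0.01, -0.02, 0.02 and 0.04 over all genes. CSN5i-3 gave 11 higher (26.2% of all) and 16 lower (26.5% of all) of 34 genes in LNCaP. In 22Rv1 it gave 8 higher (11.8% of all) and 3 lower (12.2% of all) of 36, and in PC3 9 higher (38.5% of all) and 22 lower (38.5% of all) of 36. Medians were -0.10, 0.02 and -0.34, beside 0.00, -0.04 and -0.01 over all genes. In C4-2, titled C5i against titled NT, 9 of 37 were higher (37.0% of all) and 24 lower (37.9% of all), with a median of -0.78 beside -0.01. The share called lower with shCSN5 was 52.8% of the members tested in PC3, 31.4% in LNCaP, 17.1% in C4-2 and 16.7% in 22Rv1. Without PC3 shCSN5 replicate 2, whose labels conflict, 17 were lower and 1 higher in PC3, while over all genes 283 were lower and 765 higher, against 992 and 1586 with that library. With total-count scaling the PC3 background was 12.7% higher and 4.54% lower, with 2 members higher and 17 lower. A replicate block gave 5 members higher and 29 lower in PC3, while over all genes 4443 were higher and 3737 lower. In 22Rv1 with CSN5i-3 the count of 11 called genes was 7 without DMSO replicate 2. LDHA and HK2 were lower and VEGFA was higher in all 4 lines with shCSN5. Of the 39 genes, 15 were called higher in at least 1 and lower in at least 1 of the 7 comparisons with undisputed labels. The same share over all genes was not counted, so this count does not set these genes apart.

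**Figure D1:**
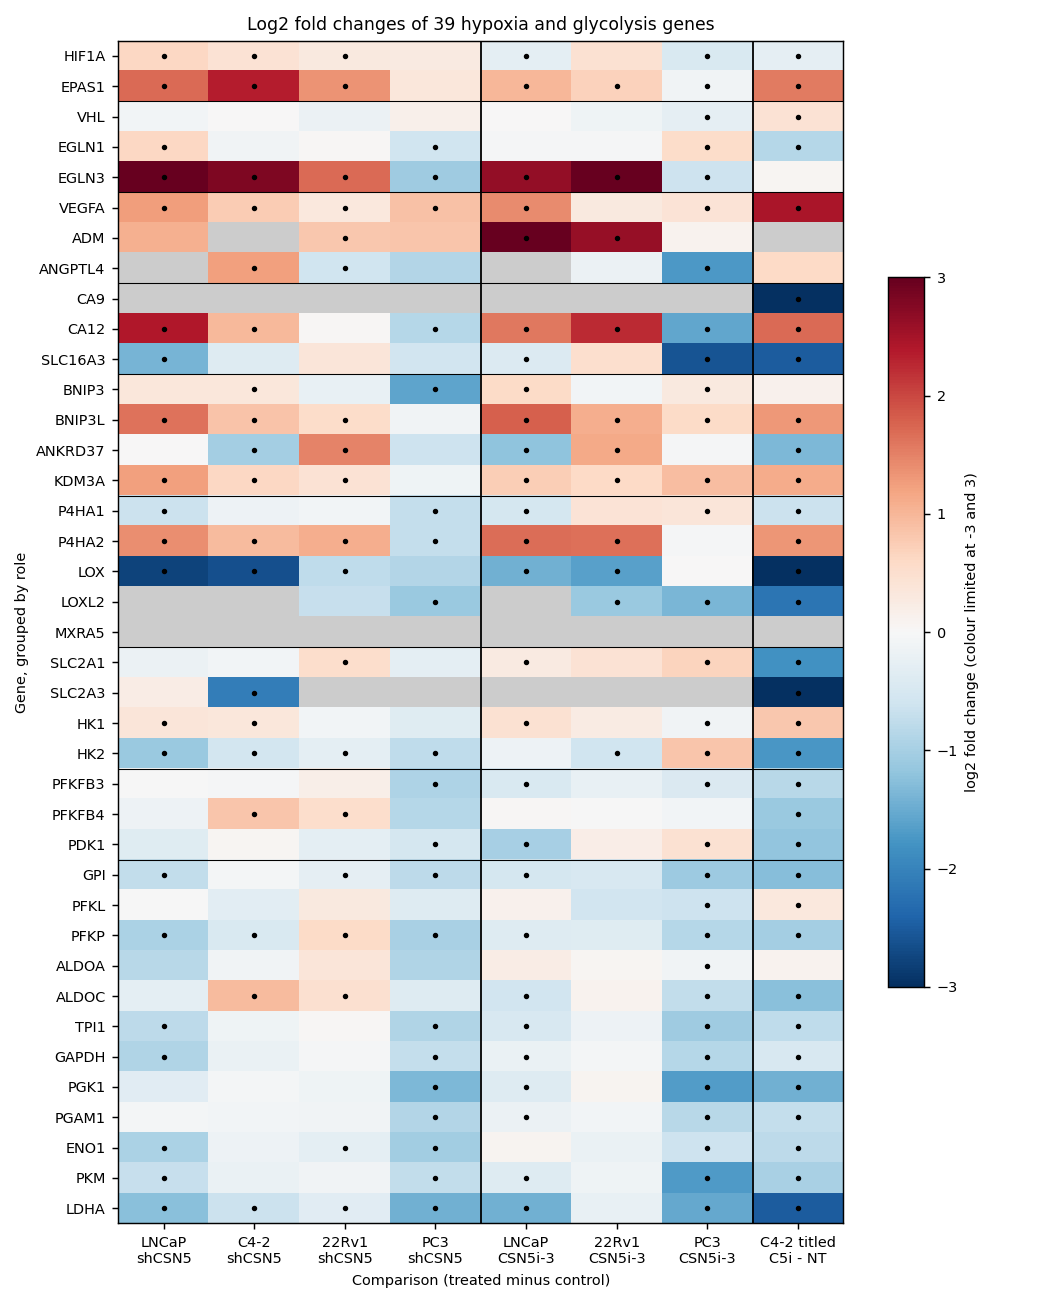
Log2 fold changes of the 39 genes (rows, grouped by role) in 8 comparisons (columns); colour runs from blue (lower) to red (higher), is limited at -3 and 3, grey marks genes not tested or without a row, and dots mark adjusted p under 0.05. EGLN3 runs from 5.07 in LNCaP to -1.06 in PC3 with shCSN5. In the C4-2 column by title, the values of CA9 and SLC2A3 are fitted values against libraries at 0, not sizes.

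The RNA of HIF1A, the alpha subunit found in most tissues, rose with shCSN5 in LNCaP, C4-2 and 22Rv1, and fell with CSN5i-3 in LNCaP and PC3. It was counted at 96.1 and 96.8 CPM with scramble, against 166 and 133 CPM with shCSN5 in LNCaP (log2 fold change 0.63, SE 0.149, adjusted p = 0.021). In C4-2 it stood at 173 and 151 CPM with scramble, against 216 and 225 CPM with shCSN5 (0.44, SE 0.101, adjusted p = 0.014), and 22Rv1 had 304 and 342 CPM with scramble, against 393 and 398 CPM with shCSN5 (0.29, SE 0.0807, adjusted p = 0.013). The shCSN5 libraries lay above the scramble libraries in each of these lines. PC3 had 668 and 576 CPM with scramble, against 795 and 711 CPM with shCSN5 (0.27, SE 0.115, adjusted p = 0.16), with no overlap but without passing the test. CSN5i-3 moved the values the other way in LNCaP, from 105 and 94.0 to 80.6 and 81.3 CPM (-0.29, SE 0.0762, adjusted p = 0.015). PC3 had 455 and 452 CPM with DMSO, against 328 and 330 CPM with CSN5i-3 (-0.46, SE 0.0238, adjusted p = 2.5e-25), and in 22Rv1 the values were 284 and 249 CPM with DMSO, against 336 and 397 CPM with CSN5i-3 (0.46, SE 0.150, adjusted p = 0.072). The difference between inhibitor and knockdown was itself called for HIF1A in LNCaP (-1.02, SE 0.179, adjusted p = 0.0058) and PC3 (-0.67, SE 0.128, adjusted p = 0.0049). The LNCaP knockdown call was lost without either scramble library (adjusted p up to 0.33) and the C4-2 call without shCSN5 replicate 2 and with a replicate block (up to 0.14). The 22Rv1 call was lost without shCSN5 replicate 2 and with a spread shared by all shRNA libraries (up to 0.078), and the LNCaP inhibitor call without either CSN5i-3 library (up to 0.12).

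EPAS1 encodes the other alpha subunit, HIF-2 alpha, and rose in LNCaP, C4-2 and 22Rv1 with shCSN5, and in LNCaP and 22Rv1 with CSN5i-3. Its level was low there: 1.21 and 0.974 CPM with scramble, against 3.67 and 3.44 CPM with shCSN5 in LNCaP (log2 fold change 1.69, SE 0.224, adjusted p = 0.003) and 0.850 and 1.13 CPM with scramble, against 5.10 and 4.98 CPM with shCSN5 in C4-2 (2.35, SE 0.213, adjusted p = 2.5e-04). In 22Rv1 it rose from 6.0 and 6.63 to 15.4 and 16.8 CPM (1.34, SE 0.142, adjusted p = 2.5e-05). All shCSN5 libraries of these lines exceeded their controls. In PC3 it had 49.0 and 56.6 CPM with scramble, against 64.6 and 69.6 CPM with shCSN5 (0.35, SE 0.121, adjusted p = 0.1), and CSN5i-3 gave 65.8 and 64.5 CPM with DMSO, against 60.7 and 59.8 CPM with CSN5i-3, a small decrease (-0.11, SE 0.0371, adjusted p = 0.0054). With CSN5i-3, LNCaP had 1.12 and 1.31 CPM with DMSO, against 2.33 and 2.56 CPM with CSN5i-3 (1.0, SE 0.194, adjusted p = 0.0042) and 22Rv1 had 6.0 and 6.74 CPM with DMSO, against 10.6 and 9.95 CPM with CSN5i-3 (0.69, SE 0.186, adjusted p = 0.041). The effect of shCSN5 in PC3 differed from that in LNCaP by -1.41 on the log2 scale (adjusted p = 0.003). The PC3 inhibitor call was lost in DESeq2 and without DMSO replicate 1, with adjusted p up to 0.08, and the 22Rv1 inhibitor call with a replicate block and without either DMSO library, with adjusted p up to 0.27.

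VHL, the receptor that recognises hydroxylated HIF alpha, was called in 1 of the 7 comparisons with undisputed labels, PC3 with CSN5i-3. With shCSN5 it stood at 92.6 and 90.8 CPM with scramble, against 93.6 and 80.9 CPM with shCSN5 in LNCaP (-0.07, SE 0.138, adjusted p = 0.72) and at 84.7 and 73.6 CPM with scramble, against 76.9 and 82.2 CPM with shCSN5 in C4-2 (0.01, SE 0.111, adjusted p = 0.97), and these groups overlapped. In 22Rv1 the values were 109 and 123 CPM with scramble, against 103 and 102 CPM with shCSN5 (-0.18, SE 0.0837, adjusted p = 0.1), and in PC3 95.2 and 84.6 CPM with scramble, against 105 and 95.9 CPM with shCSN5 (0.16, SE 0.111, adjusted p = 0.36). None of these passed the test. With CSN5i-3 the values were 82.1 and 75.0 CPM with DMSO, against 80.9 and 78.0 CPM with CSN5i-3 in LNCaP (0.02, SE 0.0756, adjusted p = 0.86) and 119 and 100 CPM with DMSO, against 93.4 and 108 CPM with CSN5i-3 in 22Rv1 (-0.12, SE 0.158, adjusted p = 0.62), again with overlap. PC3 had 122 and 116 CPM with DMSO, against 98.6 and 100 CPM with CSN5i-3, a decrease of small size that was called (-0.26, SE 0.0316, adjusted p = 1.0e-10). EGLN1, the main prolyl hydroxylase of HIF alpha in most cells, was higher with shCSN5 in LNCaP (0.62, SE 0.162, adjusted p = 0.029) and lower in PC3 (-0.59, SE 0.133, adjusted p = 0.039), while CSN5i-3 raised it in PC3 (0.55, SE 0.0454, adjusted p = 1.9e-16). The PC3 knockdown call of EGLN1 was lost with total counts and without either shCSN5 library, with adjusted p up to 0.24, and the LNCaP call without either scramble library, with adjusted p up to 0.46.

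EGLN3, a prolyl hydroxylase that is itself a HIF target, had the largest increase of the 39 genes in 4 of the comparisons (shCSN5 in LNCaP, C4-2 and 22Rv1, CSN5i-3 in 22Rv1). It rose in LNCaP with shCSN5, from 25.1 and 25.9 to 907 and 805 CPM (log2 fold change 5.07, SE 0.139, adjusted p = 1.5e-04). In C4-2 it stood at 7.57 and 6.66 CPM with scramble, against 49.3 and 50.0 CPM with shCSN5 (2.80, SE 0.139, adjusted p = 5.5e-05), and 22Rv1 had 2.98 and 3.53 CPM with scramble, against 10.2 and 10.9 CPM with shCSN5 (1.69, SE 0.164, adjusted p = 1.3e-05). The treated libraries were many times the controls in LNCaP and well above them in C4-2 and 22Rv1. PC3 went the other way at a low level, with 1.82 and 1.88 CPM with scramble, against 0.725 and 1.04 CPM with shCSN5 (-1.06, SE 0.249, adjusted p = 0.043). CSN5i-3 gave 14.4 and 13.5 CPM with DMSO, against 89.2 and 84.4 CPM with CSN5i-3 in LNCaP (2.64, SE 0.0827, adjusted p = 9.7e-07) and 3.35 and 2.51 CPM with DMSO, against 24.4 and 23.2 CPM with CSN5i-3 in 22Rv1 (3.02, SE 0.225, adjusted p = 8.3e-04), both without overlap. In PC3 it had 2.08 and 1.85 CPM with DMSO, against 1.35 and 1.21 CPM with CSN5i-3 (-0.62, SE 0.201, adjusted p = 0.0049). Between the C4-2 pairs titled C5i and NT, EGLN3 was not called (0.06). The shCSN5 effect differed between PC3 and LNCaP by -6.19 and between 22Rv1 and C4-2 by -1.13 on the log2 scale. Both decreases in PC3 were lost in DESeq2, and without shCSN5 replicate 1 for the knockdown (adjusted p up to 0.22) or DMSO replicate 1 for the inhibitor (adjusted p up to 0.062).

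**Figure D2:**
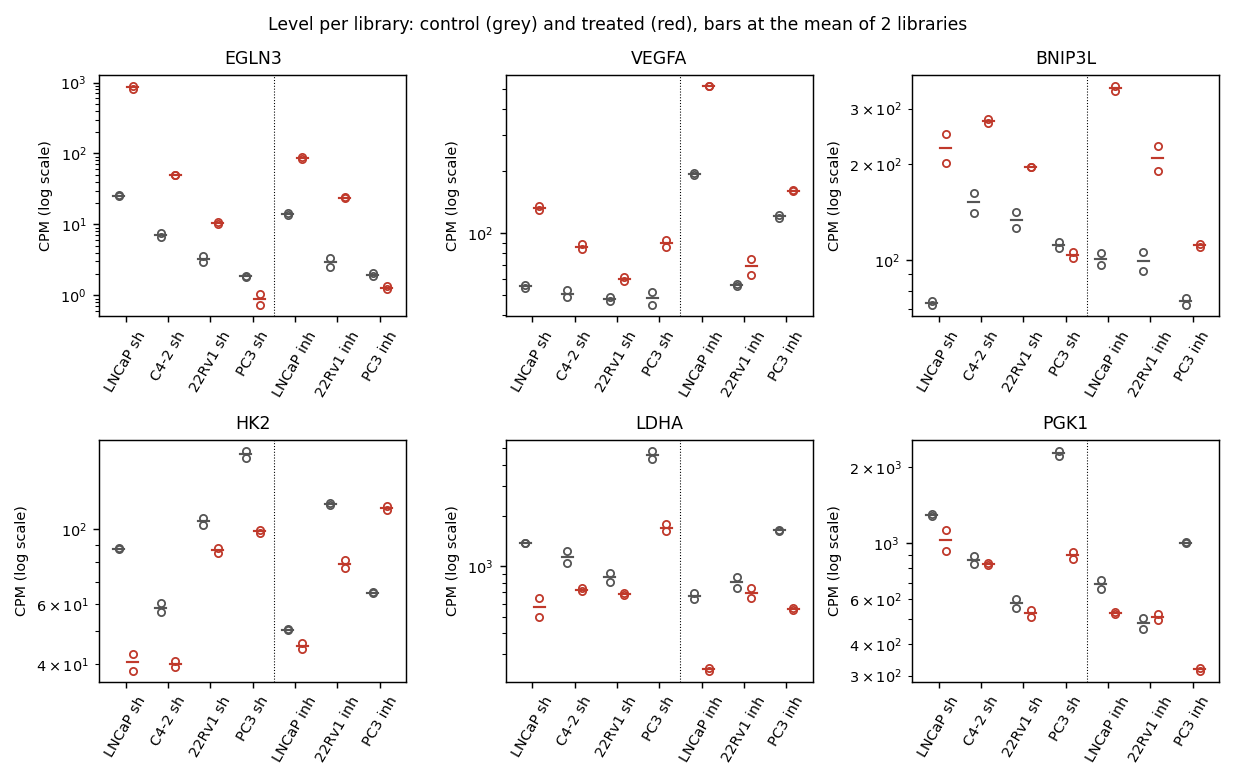
CPM on a log axis of 6 genes in each library of 4 shRNA (sh) and 3 inhibitor (inh) comparisons, with control libraries grey, treated libraries red and bars at the mean of 2 libraries. EGLN3 reaches 907 and 805 CPM in LNCaP shCSN5 libraries, and levels in different tables were scaled separately.

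Among secreted HIF targets, VEGFA, the angiogenic growth factor, rose with shCSN5 in every line. In PC3 it was the 1 member called higher, or 1 of 5 with a replicate block. Its level there was 44.7 and 52.1 CPM with scramble, against 85.5 and 92.8 CPM with shCSN5 (log2 fold change 0.88, SE 0.122, adjusted p = 0.014). The increases were 1.26 in LNCaP, 0.75 in C4-2 and 0.32 in 22Rv1, where the call was lost without either shCSN5 library (adjusted p up to 0.095). With CSN5i-3 VEGFA also rose in LNCaP (1.42) and PC3 (0.41), and in 22Rv1 it had 0.30 (adjusted p = 0.23). ADM, the vasodilator peptide adrenomedullin, rose in LNCaP with CSN5i-3 from 0.280 and 0.215 to 2.43 and 2.23 CPM (3.22, SE 0.268, adjusted p = 7.8e-05). In 22Rv1 with CSN5i-3 it stood at 3.09 and 3.13 CPM with DMSO, against 22.0 and 16.4 CPM with CSN5i-3 (2.62, SE 0.228, adjusted p = 0.0012). These inhibitor increases exceeded those with shCSN5 by 2.06 in LNCaP and 1.82 in 22Rv1, differences that were lost without any of 4 single libraries in LNCaP (adjusted p up to 0.082) and of 5 in 22Rv1 (up to 0.083). ANGPTL4, an inhibitor of lipoprotein lipase, rose with shCSN5 in C4-2, 1.08 and 1.68 CPM with scramble, against 3.28 and 3.17 CPM with shCSN5 (1.23, SE 0.241, adjusted p = 0.0074), and fell in 22Rv1, 19.3 and 14.5 CPM with scramble, against 13.5 and 8.66 CPM with shCSN5 (-0.60, SE 0.205, adjusted p = 0.034). Its libraries also differed within pairs, and the 22Rv1 call was lost with total-count scaling, with the shared spread and without scramble replicate 1 or shCSN5 replicate 2 (adjusted p up to 0.22). The C4-2 call was lost without scramble replicate 1 (adjusted p = 0.051). CSN5i-3 lowered ANGPTL4 in PC3, from 8.02 and 8.06 to 2.33 and 2.52 CPM (-1.73, SE 0.118, adjusted p = 7.0e-20).

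Of the pH and lactate genes, CA12, a membrane carbonic anhydrase, rose in LNCaP with both treatments, in C4-2 with shCSN5 and in 22Rv1 with CSN5i-3, and fell in PC3 with both. With shCSN5 it stood at 56.8 and 59.7 CPM with scramble, against 328 and 286 CPM with shCSN5 in LNCaP (log2 fold change 2.40, SE 0.134, adjusted p = 2.1e-04) and at 45.7 and 42.6 CPM with scramble, against 86.2 and 87.3 CPM with shCSN5 in C4-2 (0.97, SE 0.102, adjusted p = 4.8e-04), well apart in both. In 22Rv1 it had 0.03 (adjusted p = 0.8) with shCSN5, and with CSN5i-3 it rose from 48.8 and 46.5 to 223 and 227 CPM (2.24, SE 0.134, adjusted p = 5.4e-04). The inhibitor effect in 22Rv1 exceeded the knockdown effect by 2.22 (adjusted p = 9.8e-04). In PC3 CA12 was lower with shCSN5 (-0.85) and with CSN5i-3 (-1.57). SLC16A3, the lactate exporter MCT4, fell most in PC3 with CSN5i-3, from 233 and 239 to 39.9 and 38.9 CPM (-2.58, SE 0.0332, adjusted p = 4.8e-55). In LNCaP with shCSN5 it had 2.40 and 2.57 CPM with scramble, against 0.513 and 1.36 CPM with shCSN5 (-1.40, SE 0.405, adjusted p = 0.04), a call lost with median-ratio size factors and with total counts (adjusted p up to 0.051). In the PC3 scramble pair SLC16A3 stood at 66.3 and 134 CPM, 2.02 times apart, and the knockdown groups overlapped there. CA9, another carbonic anhydrase and a textbook hypoxia marker, had at most 11 counts in any library of the 7 comparisons with undisputed labels and was not tested there.

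BNIP3L and KDM3A both rose with shCSN5 in LNCaP, C4-2 and 22Rv1, and with CSN5i-3 in LNCaP, 22Rv1 and PC3. BNIP3L, a mitophagy receptor, stood at 71.9 and 74.0 CPM with scramble, against 249 and 202 CPM with shCSN5 in LNCaP (log2 fold change 1.63, SE 0.149, adjusted p = 8.3e-04), and rose by 0.86 in C4-2 and 0.55 in 22Rv1. CSN5i-3 gave 105 and 96.1 CPM with DMSO, against 340 and 355 CPM with CSN5i-3 in LNCaP (1.79, SE 0.0696, adjusted p = 2.4e-06), 1.08 in 22Rv1 and, in PC3, 72.1 and 75.9 CPM with DMSO, against 110 and 112 CPM with CSN5i-3 (0.58, SE 0.0333, adjusted p = 2.5e-23). In PC3 with shCSN5 its groups were close, 114 and 109 CPM with scramble, against 106 and 101 CPM with shCSN5 (-0.11, SE 0.0931, adjusted p = 0.44). KDM3A, a histone H3K9 demethylase, rose by 1.23, 0.62 and 0.44 in LNCaP, C4-2 and 22Rv1 with shCSN5 and by 0.75, 0.59 and 0.92 in LNCaP, 22Rv1 and PC3 with CSN5i-3. In PC3 with CSN5i-3 it stood at 57.4 and 57.7 CPM with DMSO, against 111 and 106 CPM with CSN5i-3 (0.92, SE 0.0348, adjusted p = 1.1e-31). The call was lost without scramble replicate 1 in LNCaP (adjusted p = 0.059), without shCSN5 replicate 2 in C4-2 (adjusted p = 0.074) and, in 22Rv1 with CSN5i-3, with a replicate block and without either DMSO library or CSN5i-3 replicate 2 (adjusted p up to 0.29). BNIP3, the paralogous mitophagy receptor, fell in PC3 with shCSN5, 122 and 113 CPM with scramble, against 40.7 and 38.3 CPM with shCSN5 (-1.57, SE 0.103, adjusted p = 0.0029), the largest decrease there. ANKRD37, a small nuclear protein induced in hypoxia, was lower in LNCaP with CSN5i-3, 4.12 and 4.05 CPM with DMSO, against 1.73 and 1.82 CPM with CSN5i-3 (-1.20, SE 0.152, adjusted p = 5.8e-04), and in C4-2 with shCSN5, 6.57 and 7.41 CPM with scramble, against 2.82 and 4.01 CPM with shCSN5 (-1.03, SE 0.205, adjusted p = 0.0079). It was higher in 22Rv1 with shCSN5, 0.585 and 0.818 CPM with scramble, against 2.11 and 1.85 CPM with shCSN5 (1.48, SE 0.283, adjusted p = 0.0016). The C4-2 call was lost without either scramble library (adjusted p up to 0.093), and the 22Rv1 and C4-2 effects differed by 2.49.

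The collagen and matrix genes were split by gene. P4HA2, a collagen prolyl hydroxylase, rose in LNCaP, C4-2 and 22Rv1 with shCSN5 and fell in PC3 (-0.72). In 22Rv1 it stood at 9.85 and 7.88 CPM with scramble, against 18.7 and 19.1 CPM with shCSN5 (log2 fold change 1.10, SE 0.145, adjusted p = 1.3e-04). With CSN5i-3 it reached 30.7 and 29.8 CPM with DMSO, against 95.3 and 98.5 CPM with CSN5i-3 in LNCaP (1.68, SE 0.0719, adjusted p = 3.6e-06) and 6.39 and 6.82 CPM with DMSO, against 22.3 and 19.6 CPM with CSN5i-3 in 22Rv1 (1.66, SE 0.188, adjusted p = 0.0023). P4HA1, its paralog, was lower in LNCaP (-0.63) and PC3 (-0.72) with shCSN5, while CSN5i-3 lowered it in LNCaP (-0.53) and raised it in PC3 (0.36). The LNCaP knockdown call was lost without either scramble library (adjusted p up to 0.38), and the PC3 decrease of P4HA2 without either shCSN5 library (up to 0.074). LOX, the lysyl oxidase that cross-links collagen, fell in LNCaP, C4-2 and 22Rv1 with shCSN5 and in LNCaP and 22Rv1 with CSN5i-3, at low levels. With shCSN5 it had 1.05 and 1.25 CPM with scramble, against 0.183 and 0.143 CPM with shCSN5 in LNCaP (-2.79, SE 0.362, adjusted p = 0.0028), 3.79 and 3.94 CPM with scramble, against 0.811 and 0.425 CPM with shCSN5 in C4-2 (-2.63, SE 0.280, adjusted p = 5.0e-04) and 4.44 and 5.43 CPM with scramble, against 2.93 and 2.95 CPM with shCSN5 in 22Rv1 (-0.75, SE 0.182, adjusted p = 0.0065). With CSN5i-3 it had 0.890 and 0.549 CPM with DMSO, against 0.288 and 0.237 CPM with CSN5i-3 in LNCaP (-1.44, SE 0.400, adjusted p = 0.019) and 5.80 and 4.82 CPM with DMSO, against 1.5 and 1.92 CPM with CSN5i-3 in 22Rv1 (-1.63, SE 0.233, adjusted p = 0.0049). No treated library reached a control library in these 5 comparisons. The LNCaP inhibitor call was lost in DESeq2 and without DMSO replicate 1 or either CSN5i-3 library (adjusted p up to 0.12), and the 22Rv1 knockdown call in DESeq2 (adjusted p up to 0.087). LOXL2, a related oxidase, fell in PC3 with shCSN5, 66.2 and 89.5 CPM with scramble, against 33.2 and 38.7 CPM with shCSN5 (-1.11, SE 0.178, adjusted p = 0.018), and in 22Rv1 with CSN5i-3, 2.96 and 3.13 CPM with DMSO, against 1.76 and 1.03 CPM with CSN5i-3 (-1.12, SE 0.292, adjusted p = 0.037). CSN5i-3 also lowered LOXL2 in PC3 (-1.38). MXRA5, a matrix protein, had at most 2 counts in any library and was not tested.

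Genes of glucose entry gave unlike results by gene and by experiment. HK2, the inducible hexokinase that begins glycolysis, fell in all 4 lines with shCSN5. Its level was 87.2 and 87.9 CPM with scramble, against 42.7 and 38.3 CPM with shCSN5 in LNCaP (log2 fold change -1.11, SE 0.140, adjusted p = 0.0025) and 103 and 108 CPM with scramble, against 85.2 and 87.8 CPM with shCSN5 in 22Rv1 (-0.29, SE 0.0780, adjusted p = 0.011), and the changes were -0.55 in C4-2 and -0.75 in PC3. The C4-2 call was lost without shCSN5 replicate 2 (adjusted p = 0.073) and the 22Rv1 call without shCSN5 replicate 1 (adjusted p = 0.14). With CSN5i-3 HK2 fell in 22Rv1, 119 and 118 CPM with DMSO, against 81.3 and 77.0 CPM with CSN5i-3 (-0.59, SE 0.133, adjusted p = 0.024), and rose in PC3, 64.7 and 65.1 CPM with DMSO, against 117 and 114 CPM with CSN5i-3 (0.83, SE 0.0332, adjusted p = 1.5e-30). The 22Rv1 inhibitor call was lost with a replicate block and without either DMSO library (adjusted p up to 0.23). SLC2A1, the glucose transporter GLUT1, rose in PC3 with CSN5i-3, 55.3 and 54.7 CPM with DMSO, against 85.5 and 89.8 CPM with CSN5i-3 (0.67, SE 0.0363, adjusted p = 2.3e-24), and had -0.30 (adjusted p = 0.25) there with shCSN5. SLC2A3, the transporter GLUT3, fell in C4-2 with shCSN5 at a low level, 2.51 and 1.59 CPM with scramble, against 0.463 and 0.502 CPM with shCSN5 (-2.08, SE 0.332, adjusted p = 0.003). HK1, the constitutive hexokinase, rose with shCSN5 by 0.36 in LNCaP and 0.33 in C4-2. These calls were lost under 6 and 5 of 10 alternatives, with adjusted p up to 0.59 and 0.23. CSN5i-3 raised HK1 in LNCaP (0.45) and lowered it slightly in PC3 (-0.10), calls kept under all 9 alternatives. Of the flux regulators, PDK1, which inactivates pyruvate dehydrogenase, fell in LNCaP with CSN5i-3, 60.4 and 54.5 CPM with DMSO, against 28.4 and 29.6 CPM with CSN5i-3 (-0.99, SE 0.0838, adjusted p = 8.7e-05). PFKFB3, which makes the activator of phosphofructokinase, fell in PC3 with both (-0.93 with shCSN5 and -0.43 with CSN5i-3) and in LNCaP with CSN5i-3 (-0.45). PFKFB4, its relative, rose in C4-2 (0.84) and 22Rv1 (0.53) with shCSN5, the latter lost with the shared spread and without shCSN5 replicate 1 (adjusted p up to 0.14).

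Of the 12 glycolytic enzymes, 7 were called lower with shCSN5 in LNCaP (17.4% of all genes tested were) and 9 in PC3 (6.41% of all). No enzyme was called higher in LNCaP (18.3% of all) or PC3 (10.3% of all) by edgeR, nor by DESeq2 or at an unadjusted p under 0.05. In LNCaP, GPI, PFKP and PKM lost the call without either scramble library (adjusted p up to 0.098), and in PC3, GAPDH, GPI and PKM lost it without shCSN5 replicate 1 (up to 0.068). C4-2 had 2 lower (16.2% of all) and 1 higher (15.7% of all). Of these, the PFKP decrease was lost without any 1 of the 4 libraries (up to 0.3). The LDHA decrease and the increase, of ALDOC (0.95), were kept under all 10 alternatives. In 22Rv1, 3 were lower (21.3% of all) and 2 higher (22.6% of all). The 3 decreases, of ENO1, GPI and LDHA, were lost with a spread shared by all shRNA libraries (up to 0.15). The 2 increases, of PFKP (0.58) and ALDOC (0.49), were kept under all 10 alternatives. With CSN5i-3, 9 of 12 were lower in LNCaP (26.5% of all) and 12 of 12 in PC3 (38.5% of all). The PC3 log2 fold changes ran from -1.71 to -0.10, the latter in ALDOA. ALDOC was among those lower in LNCaP (-0.57) and PC3 (-0.74). GAPDH, PFKP and PGAM1 lost the LNCaP call without either CSN5i-3 library, and GAPDH and PGAM1 also in DESeq2 (up to 0.22). In 22Rv1 with CSN5i-3, 0 of 12 were called higher (11.8% of all) or lower (12.2% of all) by edgeR. DESeq2 also called 0, and 1 was lower at an unadjusted p under 0.05. Medians of the 12 were -0.76 in LNCaP, -0.14 in C4-2, -0.07 in 22Rv1 and -0.89 in PC3 with shCSN5, and -0.38 in LNCaP, -0.14 in 22Rv1 and -0.85 in PC3 with CSN5i-3. LDHA, which makes lactate from pyruvate, fell in all 4 lines with shCSN5 and in LNCaP and PC3 with CSN5i-3. It stood at 1378 and 1375 CPM with scramble, against 648 and 503 CPM with shCSN5 in LNCaP (log2 fold change -1.26, SE 0.148, adjusted p = 0.002), at 1237 and 1044 CPM with scramble, against 709 and 746 CPM with shCSN5 in C4-2 (-0.65, SE 0.106, adjusted p = 0.0033) and at 811 and 907 CPM with scramble, against 675 and 694 CPM with shCSN5 in 22Rv1 (-0.33, SE 0.0829, adjusted p = 0.0079). In PC3 it had 4838 and 4348 CPM with scramble, against 1777 and 1615 CPM with shCSN5 (-1.44, SE 0.105, adjusted p = 0.0034) and the log2 fold change furthest from 0 of the 4 lines. With CSN5i-3 it had 694 and 639 CPM with DMSO, against 241 and 248 CPM with CSN5i-3 in LNCaP (-1.45, SE 0.0640, adjusted p = 4.1e-06), while in 22Rv1 the log2 fold change was -0.21 (adjusted p = 0.34). No treated library reached a control library in these comparisons. The 22Rv1 knockdown call was lost with the shared spread and without shCSN5 replicate 1 (adjusted p up to 0.09).

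PGK1, PKM, ENO1 and PFKP fell in PC3 with both treatments. PGK1, the first ATP-forming enzyme of the pathway, had 2326 and 2220 CPM with scramble, against 928 and 867 CPM with shCSN5 (log2 fold change -1.34, SE 0.0918, adjusted p = 0.0031) and, with CSN5i-3, 1012 and 1004 CPM with DMSO, against 314 and 322 CPM with CSN5i-3 (-1.66, SE 0.0236, adjusted p = 5.5e-53). PKM, pyruvate kinase, fell from 3983 and 3989 to 1200 and 1245 CPM in PC3 with CSN5i-3 (-1.71, SE 0.0218, adjusted p = 4.3e-55). ENO1, enolase, fell in PC3 with shCSN5 (-1.04), in LNCaP (-0.94) and in 22Rv1 (-0.29), where the call was lost with the shared spread and without either shCSN5 library (adjusted p up to 0.093). PFKP, a platelet-type phosphofructokinase, fell with shCSN5 in PC3 (-0.98), LNCaP (-0.95) and C4-2 (-0.45) and rose in 22Rv1 (0.58), and with CSN5i-3 it fell in PC3 (-0.86) and LNCaP (-0.38). PFKL, the liver-type form, differed up to 2.46 times between the 2 libraries of a pair, and ALDOA, aldolase A, up to 2.05 times, and neither was called with shCSN5. GENCODE 29 names 62 pseudogenes after GAPDH, 13 after PGAM1, 6 after LDHA and 39 after BNIP3, and the authors' assignment of reads among such copies is not stated, so these genes' values are uncertain.

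Knockdown and inhibitor effects were compared in joint fits. In PC3, 13 of 36 genes had a higher effect with CSN5i-3 than with shCSN5 (20.5% of all genes tested) and 7 a lower effect (18.6% of all). In LNCaP 4 (6.83% of all) and 6 (14.5% of all) of 34 did, and in 22Rv1 3 (2.38% of all) and 0 (1.90% of all) of 36. In 22Rv1, DESeq2 also gave 0 lower and 5 were lower at an unadjusted p under 0.05, while 2 were lower without the low-count filter and 1 without CSN5i-3 replicate 1. The 3 higher became 1 without any of 5 single libraries: either scramble library, either shCSN5 library or DMSO replicate 2. In LNCaP the counts were 14 and 9 without shCSN5 replicate 2, more than in PC3 with all libraries, and 2 and 4 without either scramble library or CSN5i-3 replicate 1. In PC3 they were 9 and 4 without any 1 of the 4 inhibitor-table libraries. With total-count scaling the PC3 split was 10 and 9, and all genes split 14.7% and 23.2%. Each experiment had its own controls and was counted in its own table, so knockdown against inhibitor cannot be told apart from experiment against experiment. BNIP3 fell by 1.57 on the log2 scale with shCSN5 and rose by 0.29 with CSN5i-3 in PC3, a difference of 1.93, SE 0.113, adjusted p = 3.2e-05. HK2 went from -0.75 to 0.83, a difference of 1.65, SE 0.0870, adjusted p = 2.3e-05. P4HA1 (-0.72 and 0.36), EGLN1 (-0.59 and 0.55) and PDK1 (-0.53 and 0.45) likewise changed sign, with differences of 1.15, 1.21 and 1.05. The knockdown call of P4HA1 was lost without shCSN5 replicate 2 (adjusted p = 0.067), and that of PDK1 with total counts and without scramble replicate 1 or either shCSN5 library (up to 0.28). For 10 of the 12 glycolytic enzymes the difference was not called, and PKM was lower by 0.91 and ENO1 higher by 0.49 with the inhibitor, the latter lost with total counts and without any of 5 single libraries (adjusted p up to 0.14). In LNCaP, EGLN3 rose less with CSN5i-3 than with shCSN5 (-2.53, SE 0.144, adjusted p = 5.7e-05), and GAPDH fell less (0.62 higher, lost without any of 5 single libraries, adjusted p up to 0.066). ENO1, which fell with shCSN5, had 0.08 (adjusted p = 0.2) with CSN5i-3, a difference of 0.93.

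**Figure D3:**
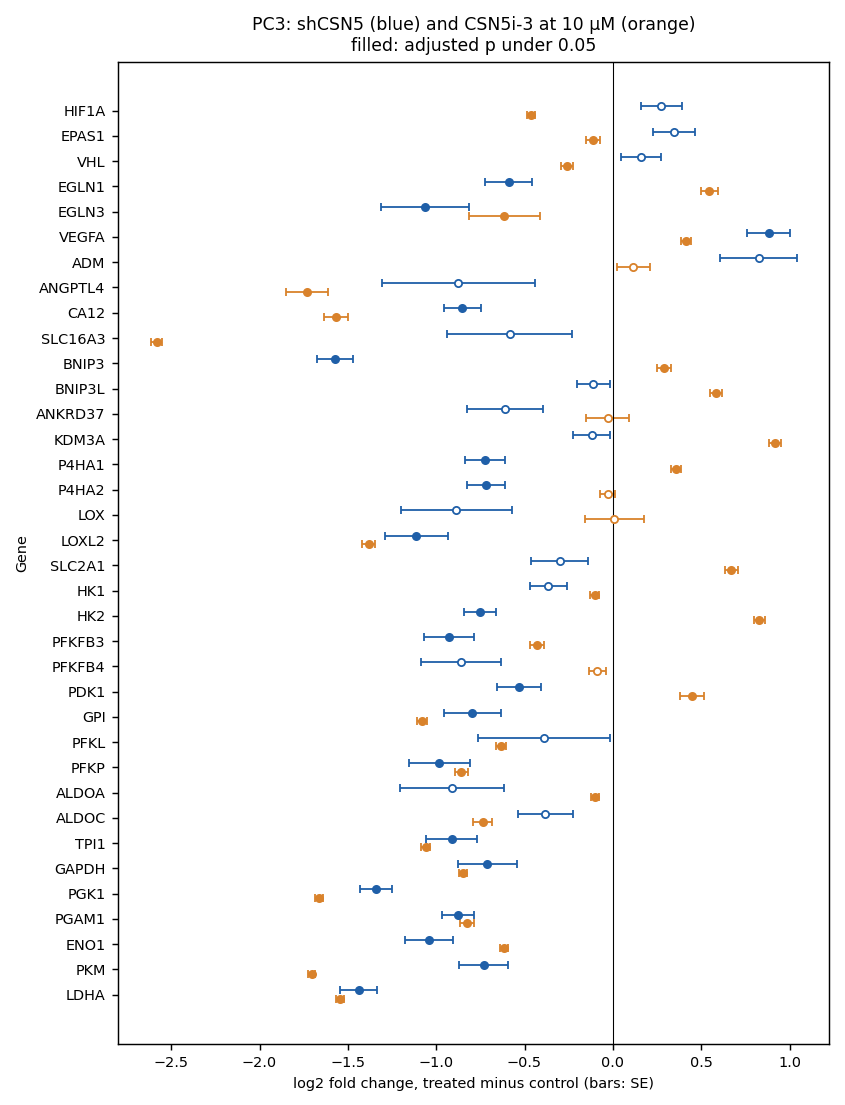
Log2 fold changes with SE bars (x axis) of the 36 tested genes (y axis) in PC3 with shCSN5 (blue) and CSN5i-3 at 10 µM (orange); filled points have adjusted p under 0.05. HK2 and BNIP3 lie on opposite sides of 0, and LDHA and PGK1 lie below -1 in both.

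The response to shCSN5 differed between lines that share a table. Between PC3 and LNCaP, 1 of 37 genes had a higher effect in PC3 (11% of all genes tested) and 12 a lower effect (13.1% of all), while with total counts 14.5% and 9.2% of all genes and 2 and 12 members did. Besides EGLN3, CA12 differed by -3.31, P4HA2 by -2.16, BNIP3 by -1.98 and BNIP3L by -1.80. PGK1 and PGAM1 were the glycolytic enzymes with a lower effect in PC3 (-1.07 and -0.88), and 10 of 12 did not differ beyond the test. Between 22Rv1 and C4-2, 4 of 37 were higher in 22Rv1 (5.53% of all) and 7 lower (7.76% of all), among them CA12 (-0.97). With total-count scaling that split was 6 and 6, and all genes split 7.63% and 5.55%. The count of 11 ran from 5 without C4-2 shCSN5 replicate 2 to 13 without C4-2 scramble replicate 2.

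The scramble libraries of the lines also differed. Among them, 18 of 36 genes were higher in PC3 than in LNCaP (41.6% of all genes tested) and 11 lower (38.2% of all). EPAS1 stood at 1.24 and 0.997 CPM in LNCaP, against 47.3 and 54.5 CPM in PC3 (log2 difference 5.50, SE 0.176, adjusted p = 5.8e-06) and HIF1A at 98.3 and 99.1 CPM in LNCaP, against 646 and 555 CPM in PC3 (2.61, SE 0.104, adjusted p = 1.0e-05). EGLN3 was lower in PC3, 25.7 and 26.5 CPM in LNCaP, against 1.76 and 1.81 CPM in PC3 (-3.87, SE 0.139, adjusted p = 7.7e-06), and LDHA was higher, 1410 and 1408 CPM in LNCaP, against 4675 and 4188 CPM in PC3 (1.65, SE 0.0873, adjusted p = 2.6e-05). PC3 held more RNA of both alpha subunits and of LDHA, and less of EGLN3. Between 22Rv1 and C4-2, 10 of 37 were higher in 22Rv1 (35.5% of all) and 20 lower (29.8% of all), with HIF1A at 176 and 161 CPM in C4-2, against 289 and 319 CPM in 22Rv1 (0.85, SE 0.0945, adjusted p = 2.6e-04) and EPAS1 at 0.866 and 1.21 CPM in C4-2, against 5.70 and 6.19 CPM in 22Rv1 (2.53, SE 0.229, adjusted p = 1.0e-04). These scramble libraries are also the controls of the knockdown effects.

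**Figure D4:**
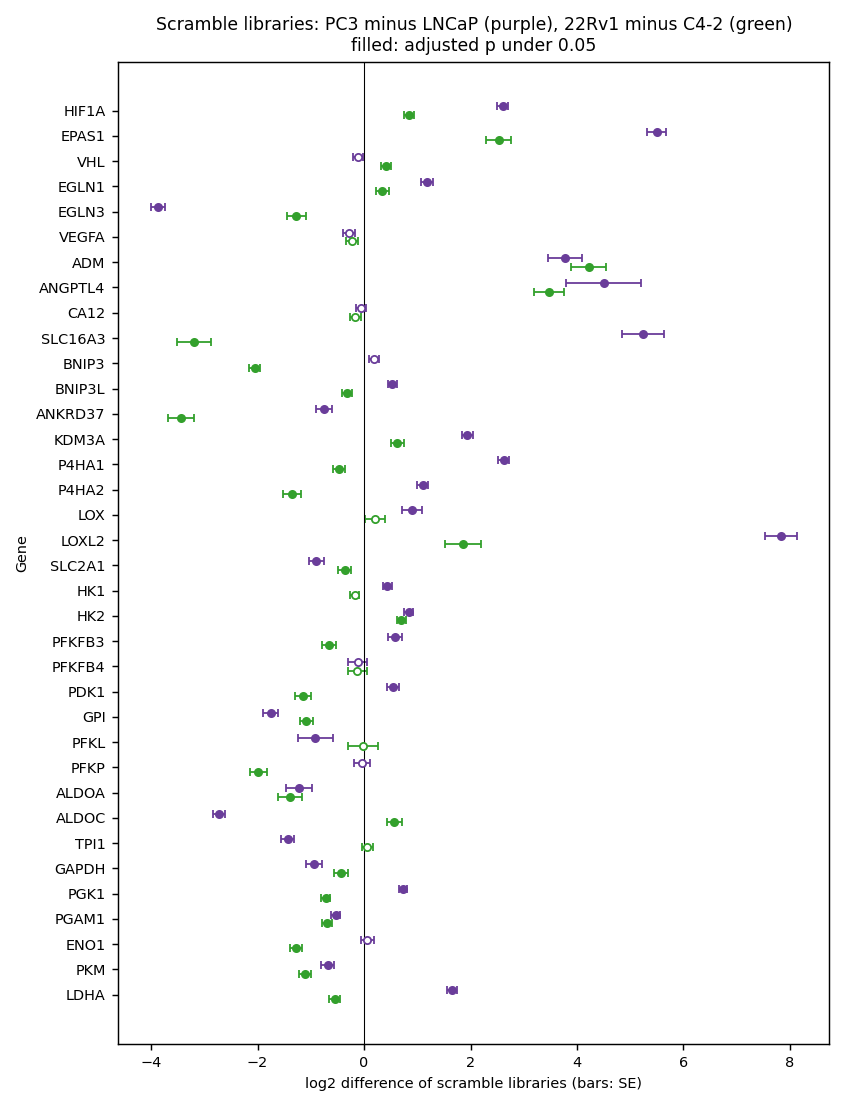
Log2 differences of scramble libraries with SE bars (x axis), PC3 minus LNCaP in purple and 22Rv1 minus C4-2 in green, for the genes tested in both (y axis, without SLC2A3, at 0 in 22Rv1); filled points have adjusted p under 0.05. EPAS1 and HIF1A lie above 0 and EGLN3 below 0 in both.

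In the C4-2 inhibitor table, VEGFA was higher in the pair titled C5i, 106 and 103 CPM in the pair titled NT, against 580 and 566 CPM in the pair titled C5i (log2 fold change 2.45, SE 0.0684, adjusted p = 1.7e-10). CA12 had 38.9 and 38.5 CPM in the pair titled NT, against 125 and 126 CPM in the pair titled C5i (1.70, SE 0.0799, adjusted p = 8.2e-09), EPAS1 1.80 and 2.42 CPM in the pair titled NT, against 6.34 and 6.10 CPM in the pair titled C5i (1.55, SE 0.183, adjusted p = 1.4e-05) and P4HA2 25.1 and 29.1 CPM in the pair titled NT, against 67.8 and 68.1 CPM in the pair titled C5i (1.33, SE 0.0967, adjusted p = 2.8e-07). LDHA was lower, 1560 and 1733 CPM in the pair titled NT, against 297 and 287 CPM in the pair titled C5i (-2.50, SE 0.0708, adjusted p = 1.8e-10), as were SLC16A3, 143 and 108 CPM in the pair titled NT, against 20.9 and 23.4 CPM in the pair titled C5i (-2.50, SE 0.132, adjusted p = 2.0e-08), and LOX, 4.97 and 4.52 CPM in the pair titled NT, against 0.0661 and 0.183 CPM in the pair titled C5i (-5.24, SE 0.342, adjusted p = 1.1e-07). HIF1A stood at 34.6 and 38.8 CPM in the pair titled NT, against 31.7 and 29.3 CPM in the pair titled C5i (-0.27, SE 0.0977, adjusted p = 0.028) and VHL at 105 and 109 CPM in the pair titled NT, against 148 and 142 CPM in the pair titled C5i (0.44, SE 0.0746, adjusted p = 2.4e-04). The HIF1A call was lost in DESeq2, in the fit with a replicate block and without titled NT replicate 2 or either titled C5i library (adjusted p up to 0.2). CA9 was at 0 in both libraries titled C5i and at 1.06 and 0.790 CPM in the pair titled NT, at least 17.7-fold lower against a floor of 3 counts over the group. SLC2A3 was likewise at 0, at least 21.5-fold lower than 0.769 and 1.44 CPM. Of the 12 glycolytic enzymes 10 were lower (37.9% of all genes tested) and 1, PFKL, was higher (37.0% of all), a call lost with total counts and without titled NT replicate 2 or titled C5i replicate 2 (adjusted p up to 0.39). Titles and descriptions of these pairs name opposite treatments, and which pair had CSN5i-3 cannot be told apart from these labels.

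A list of 48 other genes of the pathway, chosen from textbook knowledge, gave the wider context. With shCSN5, 9 of 42 tested were higher (18.3% of all genes tested) and 14 lower (17.4% of all) in LNCaP. In C4-2, 11 (15.7% of all) and 7 (16.2% of all) of 42 were, in 22Rv1 9 (22.6% of all) and 11 (21.3% of all) of 42, and in PC3 5 (10.3% of all) and 10 (6.41% of all) of 46. With CSN5i-3 the counts were 10 (26.2% of all) and 16 (26.5% of all) of 43 in LNCaP, 8 (11.8% of all) and 6 (12.2% of all) of 45 in 22Rv1, and 12 (38.5% of all) and 23 (38.5% of all) of 46 in PC3. In C4-2 by title they were 15 (37.0% of all) and 23 (37.9% of all) of 43, where HKDC1 (3.87) and DDIT4 (2.98) were higher and PLOD2 (-3.38) was lower. With shCSN5 in LNCaP, PFKFB2, which makes the activator of phosphofructokinase, rose (1.59), as did TIGAR, a phosphatase that lowers that activator (1.40), and STC1, a secreted glycoprotein, fell (-2.72). In C4-2, DDIT4, an inhibitor of mTORC1, stood at 35.5 and 38.9 CPM with scramble, against 147 and 143 CPM with shCSN5 (1.96, SE 0.103, adjusted p = 6.2e-05), STC1 rose (1.63), and LDHB, the heart-type lactate dehydrogenase subunit, and NDRG1 fell (-0.94 and -0.94). In 22Rv1, the transcriptional repressor BHLHE40 rose (2.51), TIGAR rose (1.78), and STC2 and AK4, a mitochondrial adenylate kinase, fell (-1.13 and -1.19). In PC3, DDIT4 stood at 4.45 and 5.83 CPM with scramble, against 25.9 and 27.9 CPM with shCSN5 (2.39, SE 0.184, adjusted p = 0.0038), STC2 rose (1.83), and AK4 and PPFIA4 fell (-1.06 and -1.44).

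With CSN5i-3 in LNCaP, HKDC1, a hexokinase-like enzyme, stood at 0.102 and 0.239 CPM with DMSO, against 8.05 and 7.79 CPM with CSN5i-3 (5.50, SE 0.255, adjusted p = 4.9e-06), ERO1A, an oxidase of disulfide bond formation, rose (1.66), and CITED2, a competitor of HIF alpha for its coactivators, and STC1 fell (-1.56 and -4.86). In 22Rv1, PDK4, a pyruvate dehydrogenase kinase, rose (2.15), and PLOD2, a collagen lysyl hydroxylase, and the enolase ENO2 fell (-1.13 and -1.27). In PC3, MXI1, an antagonist of MYC, and BPGM rose (1.31 and 0.95), and the gluconeogenic enzyme FBP1 fell (-1.42). Chosen after their values were seen, LDHB was lower in all 4 lines with shCSN5, from -0.94 in C4-2 to -0.56 in PC3, and with CSN5i-3 in LNCaP (-1.23), 22Rv1 (-0.55) and PC3 (-0.51). Of the other subunits of the VHL ligase, the scaffold CUL2 was not called in any line with shCSN5 and lay furthest from 0 in PC3 (0.19, adjusted p = 0.29). The RING subunit RBX1 fell in PC3 (-0.51), ELOC rose in LNCaP (0.48) and ELOB rose in 22Rv1 (0.51).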

How the data were processed

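RNA of 32 libraries from 4 prostate cancer lines was sequenced and the authors deposited raw counts per gene in 6 tables. Partek is named in the submitters' processing notes, with aligner, genome build and annotation not given in the sources used here. Members (39 genes), their roles and the other pathway list were chosen with earlier results of these data known. Each comparison was fitted over all genes of its libraries with edgeR 4.0.16 (R 4.3.3; TMM factors, quasi-likelihood test; genes kept by filterByExpr at a minimum of 10 counts), and p-values were adjusted by Benjamini-Hochberg over all genes tested. With 2 libraries a group, each treated-control fit had 2 residual degrees of freedom, which limits precision. SE is the log2 fold change divided by the root of F. The fits were checked on simulated data with known changes, of which they recovered most at the larger size, while the share of false calls lay above the threshold of 0.05. Alternatives were DESeq2 1.42.0, median-ratio or total-count scaling, no filter, a replicate block, each library left out, and, for shCSN5, a spread shared by the 16 shRNA libraries. Tables of different experiments were joined by Ensembl identifier where both held one. The LNCaP tables were joined by symbols that occur once in each. Genes given with every library value are the called members with the largest changes, up to 4 higher and 4 lower per comparison, plus HIF1A, EPAS1 and VHL. Of the other pathway genes, up to 2 called in each direction are named, leaving out those with 3 counts or fewer in a group. Results that need certain other genes of the marker and pathway lists are not reported here. Other genes named within their roles were picked after their values were seen. The planned protein stretches of HIF1A and EPAS1 are not used here. Totals per library bound the counting error only.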

Additional observations from a re-analysis of the deposited data

Results flagged for a closer look

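The effect of shCSN5 differed between lines of 1 table for 24 gene and line pairs, by the interaction term of edgeR's quasi-likelihood test with Benjamini-Hochberg adjustment. All values are differences of log2 fold changes.

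PC3 minus LNCaP was negative for EGLN3 (-6.19, adjusted p = 1.1e-05), CA12 (-3.31), P4HA2 (-2.16), BNIP3 (-1.98) and BNIP3L (-1.80). It was also negative for EPAS1 (-1.41), KDM3A (-1.41), EGLN1 (-1.27), PGK1 (-1.07), PFKFB3 (-0.97), PGAM1 (-0.88) and HK1 (-0.78). LOX alone among these genes had a positive difference (1.84, adjusted p = 0.048), which was lost in DESeq2 and without any of 7 single libraries (adjusted p up to 0.14). The PFKFB3 difference was lost without LNCaP scramble replicate 2 or PC3 shCSN5 replicate 1 (adjusted p up to 0.061).

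22Rv1 minus C4-2 was positive for ANKRD37 (2.49, adjusted p = 0.0031), LOX (1.86), PFKP (1.01) and SLC2A1 (0.59). It was negative for ANGPTL4 (-1.86), EGLN3 (-1.13), EPAS1 (-1.02), CA12 (-0.97), BNIP3 (-0.59), VEGFA (-0.46) and HK1 (-0.43). The differences of EPAS1, VEGFA, SLC2A1 and HK1 were each lost without any of 5 or 6 single libraries, with adjusted p up to 0.12. That of ANGPTL4 was lost without C4-2 shCSN5 replicate 2 (adjusted p = 0.052), and that of BNIP3 without that library or 22Rv1 shCSN5 replicate 1 (up to 0.064).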

How the results depend on the processing

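Of 181 calls of these genes in the 8 comparisons of treated and control libraries, 132 kept their call under every alternative and 49 lost it under at least 1, of which 20 only when 1 library was left out. In the 7 other contrasts, 82 of 116 calls kept it. No call changed sign. The labels do not state whether same-numbered libraries are pairs, and their deviations correlated between -0.64 (22Rv1, CSN5i-3) and 0.54 (PC3, shCSN5). Pairing was therefore not settled for PC3 with shCSN5. With the replicate block the count of called genes was 34 in PC3 with shCSN5 (5 higher and 29 lower; 20 without it) and 7 in 22Rv1 with CSN5i-3 (11). Without the low-count filter, 6 genes in place of 3 differed between inhibitor and knockdown in 22Rv1. The causes were not tested. Leaving out 1 library gave 7 to 16 called genes for CSN5i-3 in 22Rv1 (lowest without DMSO replicate 2). For 22Rv1 against C4-2 it gave 5 to 13 (lowest without C4-2 shCSN5 replicate 2). For inhibitor against knockdown in LNCaP it gave 6 to 23 (10 with all). The lowest came without either scramble library or CSN5i-3 replicate 1, and the highest without shCSN5 replicate 2. In 22Rv1 that contrast gave 1 to 6, lowest without either scramble library, either shCSN5 library or DMSO replicate 2. In PC3 it gave 13 to 25, lowest without either DMSO library or either CSN5i-3 library. Other ranges were 14 to 30, 13 to 18, 14 to 24 and 14 to 29 for shCSN5 in LNCaP, C4-2, 22Rv1 and PC3. Over all genes, counts ran from 2085 to 11260 for shCSN5 in LNCaP (5326 in the main test), from 1048 to 8180 in PC3 (2578) and, for inhibitor against knockdown in 22Rv1, from 43 to 2028 (730). Total-count scaling moved the median log2 fold change of all genes most in C4-2 by title, from -0.01 to -0.20. For the shCSN5 effect in PC3 minus LNCaP it went from 0.00 to 0.17. This scaling reversed no call of these genes.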
